A study of Mus musculus with 2 samples.

Results

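The DEAD- and DEAH-box RNA helicases are described here in the second polar body (PB2) and the zygote of the mouse one-cell embryo. All genes of the deposited table whose symbol starts with Ddx or Dhx and a number were taken, except Ddx6, which gave 49 of the 11262 genes. The study asked which transcripts PB2 holds that could act on the embryo from which it is extruded. One library of each was available, from pooled PB2s and from the pooled zygotes they were split from. Both came from untreated C57BL/6 embryos, collected from the oviduct, cultured in KSOM to the late one-cell stage, freed of the zona pellucida with acid Tyrode's solution and separated by pipetting in trypsin. PB2 is the small cell that carries the surplus chromosomes of the second meiotic division, together with a little ooplasm. Poly(A) RNA of both was amplified as full-length cDNA. Values are TPM, an abundance per transcript length on a fixed total per library, so that they are proportions, and less RNA per cell cannot be seen in them. Where a pair of TPM values is given, the zygote comes first. There are no replicates, so no test was run, the spread between samples of a kind is unknown, and each difference describes these 2 libraries.

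DEAD- and DEAH-box proteins use ATP to pull RNA strands apart or to strip proteins from RNA. They are named after motif II of their shared core, Asp-Glu-Ala-Asp or Asp-Glu-Ala-His, which binds the magnesium ion needed to hydrolyse ATP. DEAD-box members open short duplexes locally, whereas DEAH-box members such as those of the spliceosome pull on an RNA strand from one end. In oocytes, which store maternal mRNA and are largely silent in transcription until genome activation, such proteins act in storage, translation and decay of that mRNA and in germ granules.

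Motif II gave a check of the symbols that does not use expression. In the longest coding sequence of each gene, codons for Gly-Lys-Thr or Gly-Lys-Ser were sought, then, 40 to 450 codons on, Asp-Glu-any-Asp or Asp-Glu-any-His, then, 15 to 60 codons on, Ser or Thr, Ala or Gly, and Thr. The distances were set after a narrower search had missed members. The order was found in 45 of the 49 members and in 61 of 11171 other genes, 0.546%, among them Eif4a1, Eif4a2 and Eif4a3 and the chromatin remodelers Chd4 and Smarca5. Of the 45, 25 encoded Asp-Glu-Ala-Asp, 8 Asp-Glu-Ala-His, and 12 another residue in place of Ala, among them Ddx39, Ddx39b, Ddx21, Ddx50, Dhx9 and Dhx57. Ddx11, Ddx28, Ddx58 and Dhx32 did not show the order. The windows below show motif II of members on which the results turn. They are coding sequence of GRCm38 from GENCODE M21, read 5′ to 3′ on the gene's strand, each within a single exon, with the 12 bases of motif II in capitals.
Ddx3x, chrX:13289399-13289428, plus strand, exon 11: ctggtgttaGATGAAGCTGACcggatgtta
Ddx46, chr13:55660749-55660778, plus strand, exon 14: gttgttttaGATGAAGCAGACagaatgttt
Ddx17, chr15:79538866-79538895, minus strand, exon 7: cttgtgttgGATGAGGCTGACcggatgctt
Ddx5, chr11:106785184-106785213, minus strand, exon 7: cttgtccttGATGAAGCTGATaggatgctt
Ddx4, chr13:112612088-112612117, minus strand, exon 17: ttagttttgGATGAAGCTGATcgaatgttg
Ddx19a, chr8:110979077-110979106, minus strand, exon 8: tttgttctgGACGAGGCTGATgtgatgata
Ddx19b, chr8:111011326-111011355, minus strand, exon 8: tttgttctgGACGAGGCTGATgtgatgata
Ddx39b, chr17:35247081-35247110, plus strand, exon 4: tttattttgGACGAGTGTGACaagatgctt
Dhx57, chr17:80267523-80267552, minus strand, exon 9: atcattgttGATGAAGTTCATgagaggaca
Ddx5 and Ddx17 are close relatives whose codons differ in these windows, while Ddx19a and Ddx19b have the same 30 bases. Over all 45 members 29 different 12-base motifs were used.

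The 11262 genes of the table covered 92.7% of all TPM in the zygote and 89.8% in PB2, and the depth of the libraries is unknown. All 12 oocyte markers listed were found in both libraries, from 62.7 TPM for Mos in the zygote to 22562 TPM for Dppa3 in the zygote. Of 12 cumulus and granulosa cell markers 5 were in the table, with a summed level of 81.0 TPM in the zygote against 81.1 in PB2. Cyp19a1 made up most of that, with 72.2 and 70.9 TPM, and Cyp11a1, at 0.80 TPM in PB2, was listed at 0 in the other library. Of 6 sperm markers 2 were found, Prm2 with 19.8 and 22.0 TPM and Acrv1 with 1.1 TPM in each. The part of such cells in the helicase values was not tested.

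The helicases as a group held similar shares of both libraries. Their TPM summed to 1620 in the zygote, 0.175% of the table, and to 1873 in PB2, 0.208%. A few members carried most of it. The 5 most abundant held 57.1% of the helicase TPM in the zygote and 57.6% in PB2, and 9 of the 10 highest were the same genes in both. No member was listed at 0. At least 10 TPM was reached by 28 members in each library, and 6 members were under 1 TPM in the zygote against 2 in PB2. The shares of all genes at these levels are not given here. The median level of all genes compared was also higher in PB2, with 10.1 TPM in the zygote against 12.8 in PB2. Across the 49 members the ranks of the TPM values were close between the libraries, with Spearman's rho of 0.93 across genes that share both libraries, against 0.91 over the 10645 genes compared.

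The most abundant helicase was Ddx3x, an X-linked factor that helps the ribosome scan structured leaders of mRNA, with 271.9 TPM in the zygote against 292.0 in PB2. Ddx24, a factor of large ribosomal subunit assembly, had 252.9 and 262.0 TPM. Ddx18, which acts on pre-ribosomal RNA, had 209.2 and 240.3 TPM. These levels differed by less than 1.5-fold between the libraries. Ddx5, a splicing and transcription cofactor, had 107.4 TPM in the zygote against 107.7 in PB2. Ddx46, a spliceosomal helicase, had 83.1 TPM in the zygote against 177.0 in PB2, where it ranked next after these most abundant 3. Dhx57 had 81.7 and 94.9 TPM and was the most abundant gene with a Dhx symbol. Ddx19a, which remodels mRNA and protein complexes at the nuclear pore, had 80.7 TPM in the zygote against 73.1 in PB2. The level of Ddx18 is uncertain, because 62.7% of the 50-base windows of its transcript also occur in transcripts of other genes, Gm16433 first. The same share was 22.7% for Ddx5, which shares them with Gm12183, and 17.3% for Ddx50, and such reads can be lost or split in counting.

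**Figure D1:**
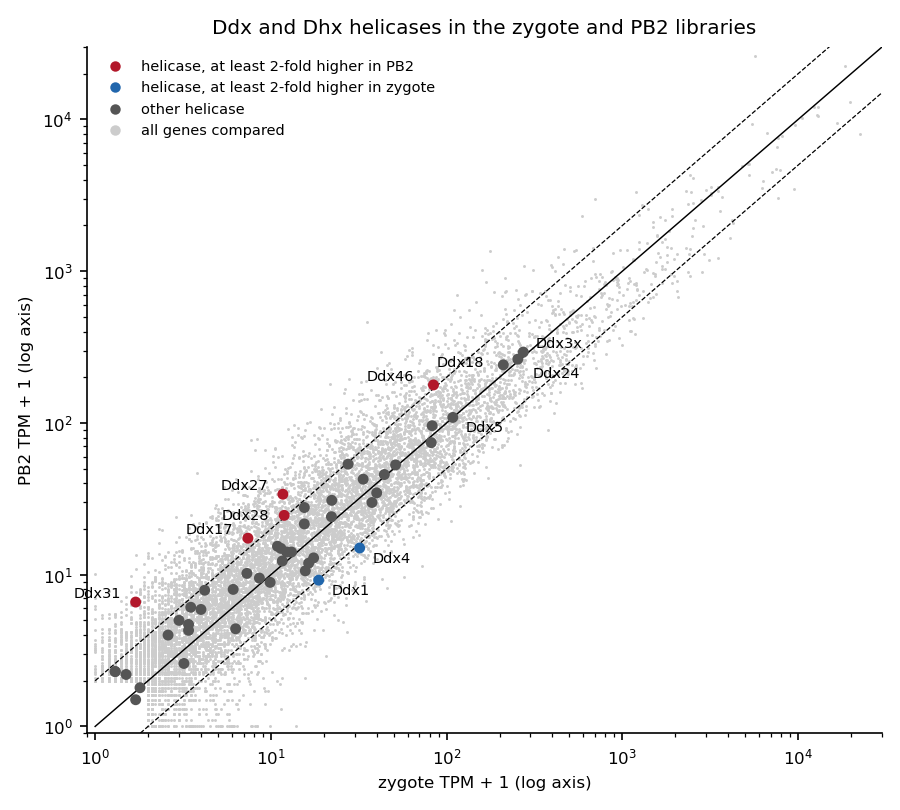
Each point is a gene, with zygote TPM + 1 on the x axis and PB2 TPM + 1 on the y axis, both on log axes. Grey points are the 10645 genes compared, large points the 49 helicases, the solid line equality and the dashed lines 2-fold. The helicases lie along the line of equality, with 5 above the upper and 2 below the lower dashed line.

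Genes were compared by the log2 ratio, log2((PB2 TPM + 1)/(zygote TPM + 1)), where at least 1 TPM was present in either library. This kept 47 of the 49 members, since Ddx23 had 0.70 and 0.50 TPM and Dhx35 0.80 TPM in each library. Past 2-fold on this scale, 5 of the 47, 10.6%, lay on the PB2 side, against 18.9% of the genes compared. In the other direction 2 of the 47, 4.26%, lay on the zygote side, against 8.09%. Within 1.5-fold lay 32 members, 68.1%, against 47.7% of all genes. Among genes with at least 10 TPM in either library, 6 of 30 members, 20.0%, were at least 2-fold apart, against 28.8% of all such genes. The members ran from -1.09 to 1.96, with an interquartile range of 0.65 against 1.2 over all genes. Their median log2 ratio was 0.34, with a 95% order-statistic interval from 0.10 to 0.48, and that of all genes was 0.21. With all ratios centred on that median of 0.21, 25 members lay above it, and 3 members were past 2-fold in PB2 and 2 in the zygote, against 1383 and 1291 of all genes. This interval, like those of the other medians below, is for the median and treats the members as separate draws. It covers neither the spread among members nor the error of the libraries.

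The member with the highest log2 ratio was Ddx31, a factor of ribosome assembly (chr2:28840406-28905571). It had 0.70 TPM in the zygote against 5.6 in PB2, and its log2 ratio was 1.96. The deposited values differ 8.0-fold, and their rounding to 1 decimal allows 7.4- to 8.69-fold. Ddx27, another factor of large subunit assembly (chr2:167015193-167034947), had 10.7 TPM in the zygote against 32.9 in PB2, and its log2 ratio was 1.53. Ddx17, the close relative of Ddx5 (chr15:79527736-79546741), had 6.4 and 16.4 TPM, a log2 ratio of 1.23. Ddx46 (chr13:55635027-55681256), with the largest gain in TPM of all members, had a log2 ratio of 1.08. Ddx28, a protein of the mitochondrial ribosome assembly pathway encoded by a single exon (chr8:106009621-106011882), had 10.9 and 23.6 TPM, a log2 ratio of 1.05. Any gene past 2-fold in PB2 on this scale also has a higher value there before the pseudocount is added, so that direction is no separate support.

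The members past 2-fold in the zygote were Ddx4 and Ddx1. Ddx4, the germ cell helicase known as Vasa (chr13:112598333-112652475), had 31.0 TPM in the zygote against 14.0 in PB2, and its log2 ratio was -1.09. Ddx1, a subunit of the tRNA ligase complex (chr12:13216973-13249213), had 17.7 TPM in the zygote against 8.2 in PB2, and its log2 ratio was -1.02. The deposited values were 2.21-fold and 2.16-fold higher in the zygote. Positions are those of the genes in GENCODE M21 on GRCm38, looked up by Ensembl identifier.

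Splicing helicases drive the spliceosome from one conformation to the next. Of the 12 members listed for splicing, 10 were compared, and 2 of them, Ddx17 and Ddx46, were past 2-fold in PB2, where 18.9% of all genes were. Their median log2 ratio was 0.43, against 0.21 over all genes, and it was -0.058 with the trend of the ratio on GC content removed. Dhx16, which readies the spliceosome for the first step, had 3.0 TPM in the zygote against 4.9 in PB2. Dhx38, which acts before the second step, had 7.6 and 8.5 TPM. Dhx8, which releases the spliced mRNA, had 14.5 and 20.6 TPM, and Dhx15, which takes the spliceosome apart, 5.1 and 7.0 TPM. These 4 lay between 0.14 and 0.56 on the log2 ratio scale. Ddx42, a partner of the U2 particle like Ddx46, had the lowest log2 ratio of the splicing members compared, -0.21, with 39.0 TPM in the zygote against 33.6 in PB2. Ddx39b, which loads the export machinery onto mRNA as well as acting in early spliceosome assembly, had 6.3 and 9.2 TPM. Ddx41 had 11.3 and 13.1 TPM. Ddx23, which acts when the U4 particle leaves, stayed under 1 TPM in both libraries.

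Ribosome biogenesis was the largest role, with 16 members, all compared. Their median log2 ratio was 0.47, with a 95% order-statistic interval from 0.051 to 0.82, and 14 of the 16 had a ratio above 0, as did 59.2% of all genes, while 9 lay above the all-gene median of 0.21. That median of 0.47 was 0.12 over members of at least 5 TPM in either library, 0.10 with the GC trend removed and 0.22 with the length trend removed. Past 2-fold in PB2 were Ddx31 and Ddx27, 2 of 16 against 18.9% of all genes, and none was past 2-fold in the zygote, against 8.09%. Ddx24, Ddx18, Ddx52 and Ddx10 had log2 ratios between 0.047 and 0.20, with 50.2 and 51.9 TPM for Ddx52 and 21.1 and 23.1 TPM for Ddx10. Ddx55, a factor of the large subunit, had 14.5 TPM in the zygote against 26.7 in PB2, and its log2 ratio was 0.84. Ddx56 had 21.2 and 29.9 TPM. Ddx51 had 2.0 and 4.0 TPM, Dhx33 1.6 and 3.0 TPM, and Ddx49 2.4 and 3.7 TPM. Dhx37, which frees the U3 snoRNA from the small subunit precursor, and Ddx54 had the same values, 0.30 TPM in the zygote against 1.3 in PB2. For both the rounding allows any ratio from 3.57 to 5.4. The lowest ratio was that of Ddx50, -0.33, and Ddx47 had 8.9 and 7.9 TPM.

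Among the 6 members listed for mRNA export and translation the median log2 ratio was 0.075. It became -0.13 with ratios centred on the median of all genes and -0.12 with the GC trend removed. Past 2-fold in the zygote was 1 of the 6, against 8.09% of all genes, and none was in PB2, against 18.9%. That member was Ddx1, described above as a subunit of the tRNA ligase complex. Dhx29, which helps the small ribosomal subunit through structured leaders, had 32.5 TPM in the zygote against 41.6 in PB2. Ddx39, an export helicase, had 43.2 and 44.7 TPM. The highest ratio was that of Ddx19b, 0.80, with 2.5 and 5.1 TPM. Of the members for decay and structured RNA, Dhx36, which unfolds G-quadruplexes, had 10.4 and 13.9 TPM, Dhx34, a factor of nonsense-mediated decay, 0.50 and 1.2 TPM, and Dhx9 2.2 and 1.6 TPM.

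In the germ cell list, Ddx4 and Ddx25 had lower values in PB2. Ddx25, a helicase known from spermatids, had 5.3 TPM in the zygote against 3.4 in PB2. Ddx20, a subunit of the SMN complex that builds splicing particles, had 2.4 and 3.3 TPM. The helicases of mitochondrial RNA, Ddx28 and Dhx30, had higher values in PB2, with log2 ratios of 0.36 and 0.20 once the GC trend was removed. Dhx30 had 3.2 TPM in the zygote against 6.9 in PB2, and its log2 ratio was 0.91, beside 1.05 for Ddx28. Its deposited values differ 2.16-fold, and the pseudocount puts it short of 2-fold, as it does Dhx34, Dhx37, Ddx19b, Ddx51 and Ddx54. The sensors of foreign RNA had lower values in PB2, with 15.4 and 10.9 TPM for Ddx58, also known as RIG-I, and 16.5 and 11.9 TPM for Ddx60, an interferon-induced helicase. Neither of these sensors reached 2-fold, and with the GC trend removed their log2 ratios were -0.47 for Ddx58 and -0.11 for Ddx60. Ddx11, a DNA helicase for sister chromatid cohesion, had 10.6 and 11.3 TPM. Of the members with a less defined role, Dhx32 had 26.5 TPM in the zygote against 52.5 in PB2, and its log2 ratio was 0.96, Ddx59 had 9.9 and 14.4 TPM, and Dhx40 14.7 and 9.6 TPM. Exons of Ddx28, Dhx30, Dhx32, Dhx57, Ddx17, Ddx39, Ddx49 and Ddx54 overlap exons of another protein-coding gene on the opposite strand, from 4 bases for Ddx17 to 895 for Ddx39, and whether strand was used in counting is not given in the sources used here.

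**Figure D2:**
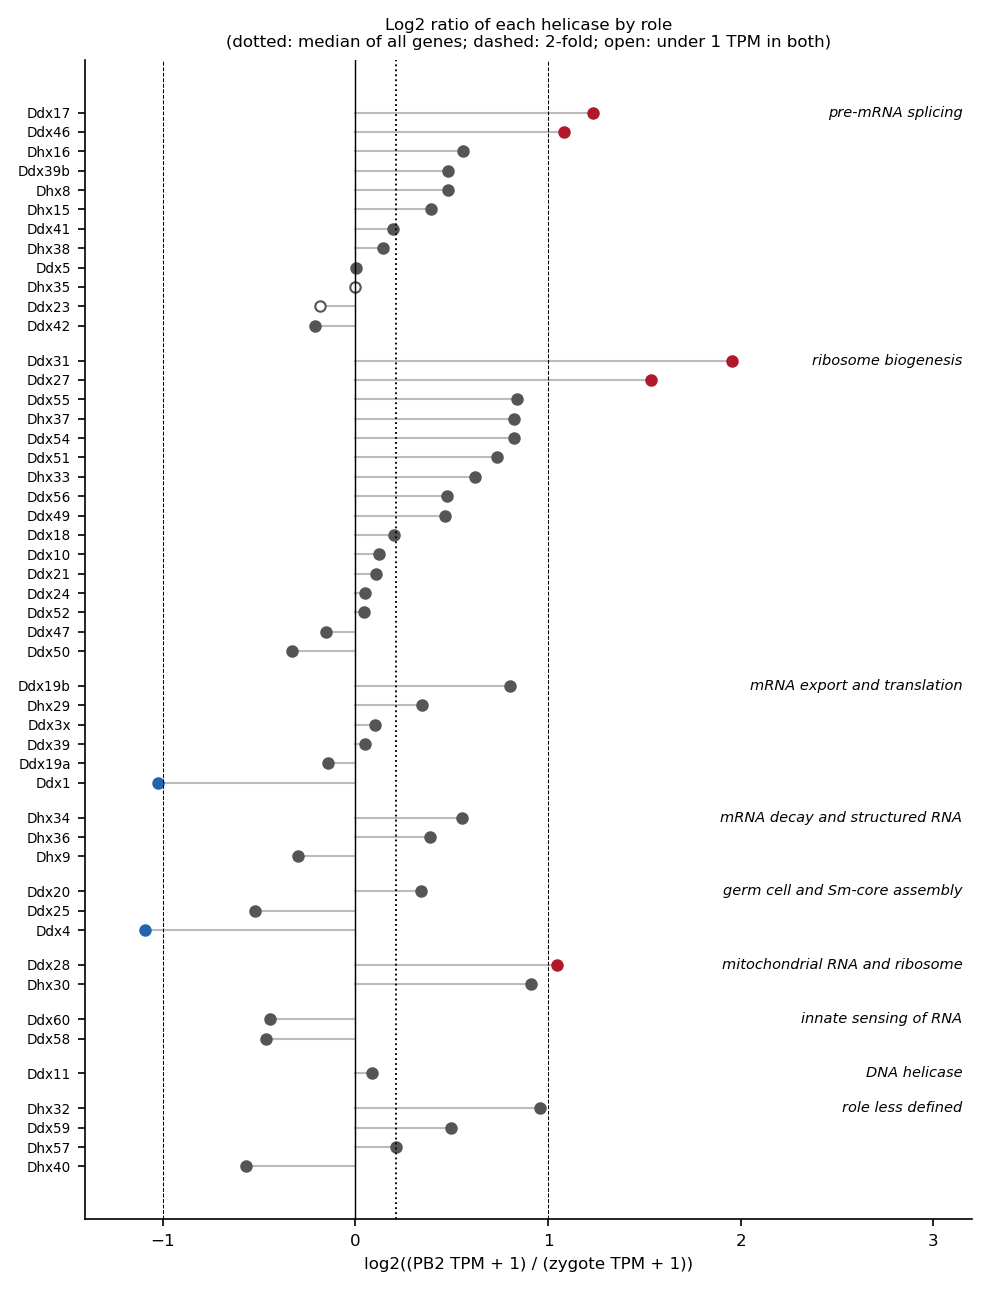
Log2 ratio of PB2 over zygote (x axis, no unit) for each of the 49 helicases, grouped by role. Points right of 0 are higher in PB2. Dashed lines mark 2-fold, the dotted line the median of all genes at 0.21, and open points the 2 members under 1 TPM in both libraries. The 5 red points are past 2-fold in PB2 and the 2 blue points in the zygote.

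Related helicases were set side by side. Ddx5 and Ddx17 share 70.6% of coding bases. Ddx5 was 16.8-fold more abundant than Ddx17 in the zygote and 6.57-fold in PB2, so that their log2 ratios differed by 1.23. In the pair of U2 helicases, Ddx46 exceeded Ddx42 by 2.13-fold in the zygote and 5.27-fold in PB2. Ddx19a and Ddx19b share 93.2% of coding bases. Ddx19a was 32.3-fold more abundant in the zygote and 14.3-fold in PB2. The values of both are uncertain, since 33.3% of the 50-base windows of Ddx19a occur in Ddx19b and 12.7% of those of Ddx19b in Ddx19a. Ddx39 exceeded Ddx39b by 6.86-fold in the zygote and 4.86-fold in PB2. The 2 nucleolar relatives Ddx50 and Ddx21, both on chromosome 10, differed by less than 1.5-fold between the libraries, with 36.6 and 28.9 TPM for Ddx50 and 12.1 and 13.1 TPM for Ddx21. Ddx4 and Ddx3x belong to the same branch of the family. Ddx3x was 8.77-fold more abundant than Ddx4 in the zygote and 20.9-fold in PB2.

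**Figure D3:**
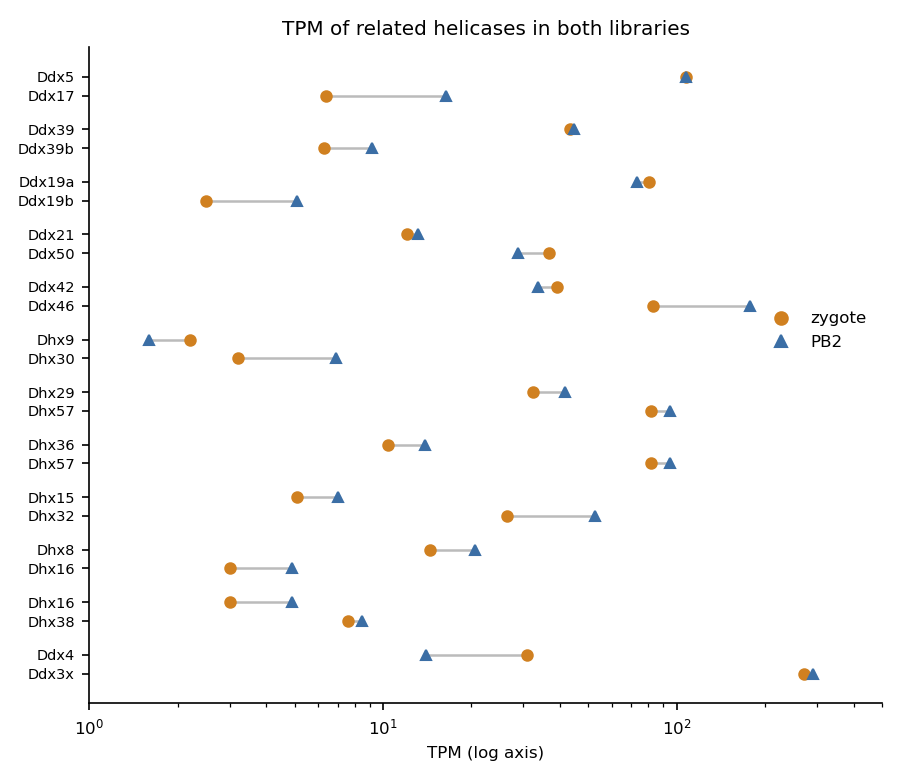
TPM (x axis, log scale) of related helicases, 2 rows to a pair, in the zygote (circles) and PB2 (triangles). Within the Ddx5 and Ddx17 pair and the Ddx42 and Ddx46 pair, 1 gene is near equal or lower in PB2 and the other is past 2-fold in PB2. Dhx16 and Dhx57 appear in 2 pairs each.

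The 33 Ddx symbols compared had a median log2 ratio of 0.12, and the 14 Dhx symbols 0.43, with 95% order-statistic intervals of 0.047 to 0.48 and 0.14 to 0.82. With ratios centred on the median of all genes the Ddx median was -0.084, below 0. All 7 members past 2-fold carry Ddx symbols, as do 33 of the 47 members compared. With a pseudocount of 0.1 TPM, Dhx30, Dhx34 and Dhx37 were past 2-fold in PB2 as well. Scarce members lay higher than abundant ones: the 17 members under 10 TPM in both libraries had a median of 0.55, against 0.25 for all such genes, and the 30 others had 0.12, against 0.18. With the GC trend removed the order was reversed, with a median of -0.059 for the 17 scarce members and 0.079 for the 30 others. Transcript GC content moved with the ratio. GC content ranked with the log2 ratio at a Spearman's rho of 0.55 over the 47 members, which share both libraries, and of 0.44 over 10606 genes. The 15 members lowest in GC, from 39.96% to 46.3%, had a median log2 ratio of 0.0040, against -0.14 for all genes in that range. The 15 highest, from 52.2% to 59.6%, had 0.48, against 0.71 for all genes in that range, and all 15 were above 0. With the trend on GC content removed, the log2 ratio was 1.65 for Ddx31, 1.15 for Ddx46, 0.99 for Ddx17, 0.90 for Ddx27 and 0.36 for Ddx28, and it was -0.92 for Ddx4 and -0.96 for Ddx1. On that scale 2 members, Ddx31 and Ddx46, remained past 2-fold in PB2 and 0 in the zygote, against 9.53% and 10.5% of all genes. Spearman's rho with transcript length was -0.033 across the members and 0.17 over all genes.

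**Figure D4:**
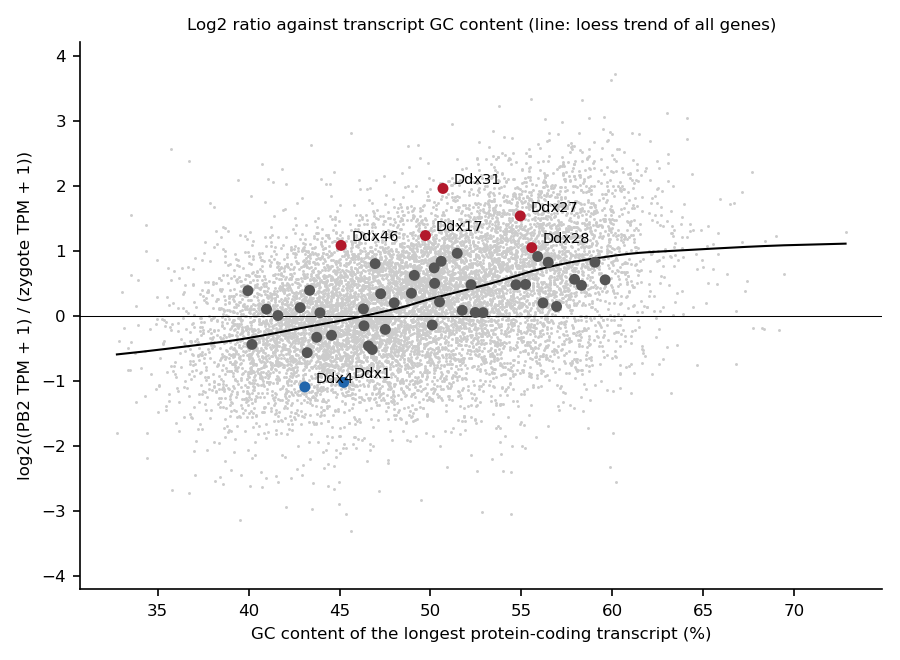
Log2 ratio of PB2 over zygote (y axis) against the GC content of the longest protein-coding transcript in percent (x axis), for all genes (grey) and the 47 helicases compared (large points). The line is the loess trend of all genes. Ddx31 and Ddx46 lie more than 1 above the trend, while Ddx28 lies 0.36 above it.

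The proteins with which the helicases work were taken from hand-written lists of 58 symbols, of which 49 were compared. Past 2-fold were 10 of 49 in PB2, where 18.9% of all genes were, and 2 of 49 in the zygote, against 8.09%. The median log2 ratio was 0.27, against 0.21 over all genes. The partners of Ddx19a and Ddx19b at the pore had higher values in PB2. Gle1 had 54.5 TPM in the zygote against 127.8 in PB2, Nup214 41.2 and 75.3 TPM, and Nupl2 6.9 and 14.1 TPM. Of these 3, Gle1 was past 2-fold on the log2 ratio scale, while the deposited values of Nupl2 differ 2.04-fold but gave 0.93 with the pseudocount. With the GC trend removed the log2 ratios were 0.90 for Gle1, 0.32 for Nup214 and 0.71 for Nupl2. The 5 compared partners of Ddx1 in the tRNA ligase complex had a median of -0.40 and none past 2-fold, with 18.8 and 18.7 TPM for Rtcb, the ligase itself. Of 16 G-patch proteins, which switch on DEAH-box helicases, 4 were past 2-fold in PB2, against 18.9% of all genes, and none in the zygote, against 8.09%, and their median was 0.58. Cherp had 2.7 TPM in the zygote against 16 in PB2, and Gpatch4, Aggf1 and Sugp1 had log2 ratios of 1.04, 1.04 and 1.02. With the GC trend removed Cherp stayed past 2-fold at 1.40, while Gpatch4 was at 0.62, Aggf1 at 0.71 and Sugp1 at 0.45. In the TREX complex, which works with Ddx39b, Thoc3 had 70.0 and 203.2 TPM and Alyref 1.6 and 6.4 TPM, whereas Thoc1 had 101.6 TPM in the zygote against 30.3 in PB2. The SMN complex had 1 partner of Ddx20 past 2-fold in each direction, Gemin8 with 9.7 and 25.8 TPM and Gemin6 with 122.8 and 38.1 TPM. Sf3b2, a U2 protein next to Ddx46 and Ddx42, had 73.8 and 205.6 TPM, and Upf1, the helicase of nonsense-mediated decay, 5.1 and 23.2 TPM. With the GC trend removed Sf3b2 was at 0.89. Thoc3, Alyref, Gemin8 and Upf1 stayed past 2-fold in PB2, and Thoc1 and Gemin6 in the zygote. On that scale Gemin7, also of the SMN complex, with 257.9 and 195.6 TPM, was at -1.26, past 2-fold in the zygote.

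**Figure D5:**
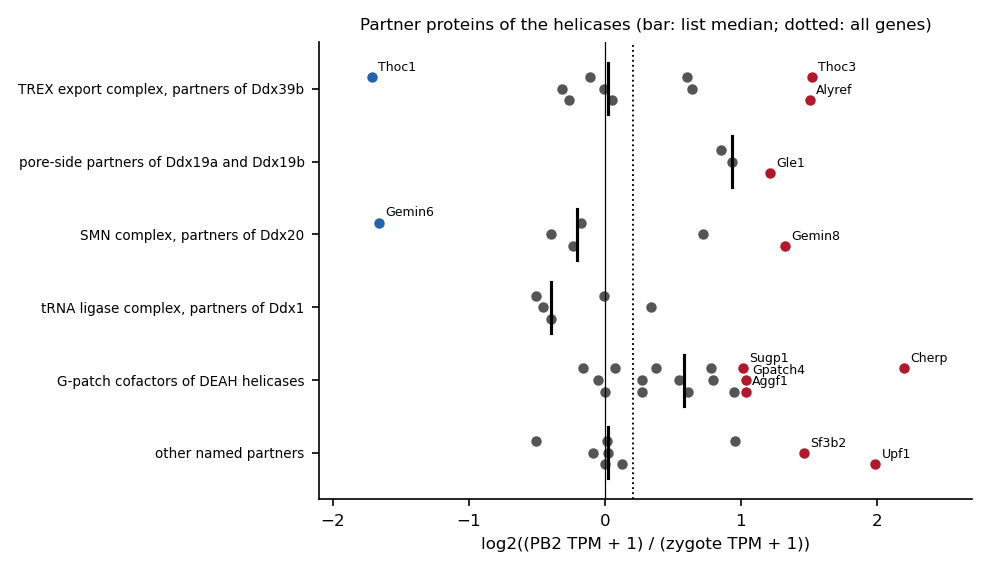
Log2 ratio of PB2 over zygote (x axis) of the 49 partner genes compared, 1 row to a list. Each point is a gene, placed at 1 of 3 heights for legibility, black bars are list medians and the dotted line is the median of all genes at 0.21. The pore-side list lies above 0.21 and all but 1 gene of the tRNA ligase list below it.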

How the data were processed

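Per the submitters' processing notes and the paper's methods, bases were called with CASAVA, reads were aligned with HISAT2 2.0.4 and counted per gene with HTSeq 0.6.1p1, and DESeq2 1.18.1 was used for normalization. The build is named as OryCun2.0, a rabbit assembly, in the methods and as OryCun2.0 and GRCm38 in the notes, while the identifiers are of mouse. The authors deposited TPM values to 1 decimal; how TPM was computed is not given in the sources used here. Columns were matched to samples by name.

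Members were taken by symbol. Members and lists were chosen with earlier results of these data known. By the rule for named genes, both TPM values were given for members past 2-fold, the 10 with the highest mean TPM, the extremes of each role and related pairs, and partners were named past 2-fold. The other members, Nup214, Nupl2, Rtcb, Gemin7 and the helicases with other names were added after their values were seen. GC content and length came from the longest protein-coding transcript of GENCODE M21, found for 11221 genes, and loess trends had a span of 0.3. Shared 50-base windows were exact matches to transcripts of other genes, and coding identity came from global alignment. No test was possible without replicates. Alternatives were other pseudocounts, filters, scalings and thresholds and removal of GC or length trends. The code was tested on simulated data. Ddx3y, Ddx43 and Dhx58 were among symbols not analysed here. Alignment used Biopython 1.88, trends statsmodels 0.14.6, tables pandas 2.3.3 and numpy 2.4.6 under Python 3.11.15, ranks scipy 1.17.1 and plots matplotlib 3.10.9.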

Additional observations from a re-analysis of the deposited data

How the results depend on the processing

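No paired analysis was possible because PB2 and zygote are represented by a single library each. Other settings gave 220 values, of which 199 kept to the limits below and 21 moved, and none past 2-fold changed sign. The limits were 1.5 times for a count, the 95% order-statistic interval for a median and 0.5 for the log2 ratio of a gene. Part of the 199 had no room to move. Filters leave the log2 ratio of a gene unchanged, and the interval of the export and translation median spans all its members. The 5 members past 2-fold in PB2 became 9 and 10 with pseudocounts of 0.1 and 0.01, which take in Dhx30, Dhx34, Dhx37 and Ddx54 and, at 0.01, Ddx19b, while the share of all genes rose from 18.9% to 24.6% and 24.7%. They became 3 with log2 ratios centred on the median of all genes, against 13.0% of all genes. With the GC trend removed they became 2 (9.53% of all genes), as with the length trend removed (11.97%). At 1.5-fold they became 13, and the share of all genes past 1.5-fold in PB2 is not given here. Counting both directions, 68.1% of the members and 47.7% of all genes lay within 1.5-fold. The 2 past 2-fold in the zygote became 0 with the GC trend removed, against 10.5% of all genes. At 4-fold both counts became 0, and the share of all genes is not given here. With the GC trend removed the median was 0.061 for all members, -0.058 for splicing, -0.059 for Ddx symbols and 0.068 for Dhx symbols. With the length trend removed it was -0.0052 for all members, -0.22 for Ddx symbols and 0.092 for Dhx symbols. Centring put the Ddx median at -0.084. Subtracting a trend centres the ratios by construction, and any further cause was not tested. Of single genes, Ddx31 moved to 2.83 and 2.98 with the smaller pseudocounts, and Ddx27 to 0.90 and Ddx28 to 0.36 with the GC trend removed. Scaling of the zygote values left 4 members past 2-fold in PB2, without Ddx28, against 16.7% of all genes. Rescaling without mitochondrial genes and the top 50 genes gave 7, with Dhx37 and Ddx54 added, against 19.8% of all genes. Depth is unknown, so the error of members under a few TPM cannot be given.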

Other observations

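RNA helicases of the same superfamily that carry other names were looked up from 16 symbols listed by hand, of which 12 were compared. Their median log2 ratio was -0.39, beside 0.34 for the 47 Ddx and Dhx members and 0.21 for all genes. With the GC trend removed the Ddx and Dhx median was 0.061, and that of the 12 is not given here. Past 2-fold were 2 in PB2 and 2 in the zygote, against 18.9% and 8.09% of all genes. The translation initiation helicases Eif4a1 and Eif4a2 had lower values in PB2, with 278.6 TPM in the zygote against 174.4 in PB2 for Eif4a1 and 127.3 and 76.2 TPM for Eif4a2. Eif4a3, of the exon junction complex, had 123.2 and 129.2 TPM. Past 2-fold in the zygote were Tdrd12, a piRNA factor, with 332.4 and 126.9 TPM, and Mtrex, the helicase of the nuclear exosome, with 38.9 and 11.7 TPM. The helicases of other exosome-related pathways lay the other way, with 1.7 TPM in the zygote against 7.3 in PB2 for Skiv2l, of the cytoplasmic exosome, and 31.5 and 90.2 TPM for Supv3l1, of mitochondrial RNA decay. With the GC trend removed Tdrd12, Mtrex and Supv3l1 stayed past 2-fold and Skiv2l was at 0.79. On that scale Tdrd9, with 3.9 and 1.9 TPM, was at -1.07. No test of the difference between the lists was run, since each condition has 1 library.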
